A study of Mus musculus with 2 samples.

Results

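The SoxE family of transcription factors has 3 members in the mouse, Sox8, Sox9 and Sox10, and most of the p300 peaks around them in the embryonic neocortex lay downstream of Sox9. The peaks of each gene were taken as those whose midpoint fell inside its body or within 1 Mb of its transcription start site, and 25 of the 6629 p300 peaks met this rule. Of these, 20 belonged to Sox9, 4 to Sox10 and 1 to Sox8, and none was shared between the 3 genes.

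SoxE proteins bind DNA through an HMG box, a domain that bends it. Sox9 is known for its role in neural stem cells and in the switch from making neurons to making glia, as well as in cartilage and testis. Sox10 is best known in the neural crest and in oligodendrocytes, where Sox8 overlaps with it. Sox9 sits in a long stretch almost free of other coding genes, often called a desert, in which regulatory elements far from the gene are known to control it in other organs.

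p300 is a co-activator with histone acetyltransferase activity, and chromatin immunoprecipitation followed by sequencing (ChIP-seq) of p300 is used to find candidate enhancers. There was 1 p300 ChIP library and 1 input library, both from dorsal cerebral wall of Swiss Webster mouse embryos at embryonic day 14.5, with no genetic change or treatment named in the labels, so nothing below is a comparison between samples. The tissue (0.15 g, with the hem, hippocampus and choroid plexus cut away) was fixed for 15 min in 1% formaldehyde, and 4 µg of the C-20 antibody to p300 was used with 30 µg of chromatin. A dissected wall mixes progenitors, new neurons and other cells, and no expression was measured, so neither the cell of origin of a peak nor the activity of a SoxE gene can be read from these data. The peak list gives positions alone, with no read count, and the depth behind a single peak is therefore unknown. The authors removed peaks at exons and within 2.5 kb of a start site, so SoxE promoters could not appear in it.

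The sequences of 4 SoxE peaks are given below because they are the peaks nearest to each start site and the widest peak of the Sox9 window. Each is the middle 300 bases on the plus strand of the mm9 genome, with matches to the site list in capitals. The list held Sox sites (ACAATG or ACAAAG), E-boxes of proneural factors (CAGCTG or CATCTG), homeodomain sites (TAATTA or TAATTG), half-sites of Nfi factors (TTGGCA) and Rbpj sites (TGGGAA), each on both strands. The peak nearest to Sox9 is number 1039 (chr11:112838379-112838678, intergenic), the widest Sox9 peak is number 1045 (chr11:113170147-113170446, in an intron of Slc39a11), the peak nearest to Sox10 is number 2251 (chr15:79023546-79023845, in an intron of the processed transcript Gm10863) and the peak of Sox8 is number 2653 (chr17:25902872-25903171, intergenic).
Sox9 peak 1039: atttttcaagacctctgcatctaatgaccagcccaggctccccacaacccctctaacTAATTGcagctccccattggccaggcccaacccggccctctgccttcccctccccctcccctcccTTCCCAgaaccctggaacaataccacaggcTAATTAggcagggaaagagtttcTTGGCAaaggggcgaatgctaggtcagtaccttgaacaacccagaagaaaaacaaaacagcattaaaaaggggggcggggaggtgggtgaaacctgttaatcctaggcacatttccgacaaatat
Sox9 peak 1045: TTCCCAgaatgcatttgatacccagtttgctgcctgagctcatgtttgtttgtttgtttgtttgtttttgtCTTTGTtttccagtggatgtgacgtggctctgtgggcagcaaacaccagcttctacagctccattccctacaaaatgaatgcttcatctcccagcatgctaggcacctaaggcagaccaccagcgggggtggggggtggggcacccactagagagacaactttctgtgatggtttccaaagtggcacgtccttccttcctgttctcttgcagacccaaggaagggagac
Sox10 peak 2251: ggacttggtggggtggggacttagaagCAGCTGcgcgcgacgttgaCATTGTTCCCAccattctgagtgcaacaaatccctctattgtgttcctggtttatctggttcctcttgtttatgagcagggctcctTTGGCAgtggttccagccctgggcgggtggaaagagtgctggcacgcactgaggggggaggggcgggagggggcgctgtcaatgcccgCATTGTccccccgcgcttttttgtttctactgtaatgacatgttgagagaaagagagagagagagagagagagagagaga
Sox8 peak 2653: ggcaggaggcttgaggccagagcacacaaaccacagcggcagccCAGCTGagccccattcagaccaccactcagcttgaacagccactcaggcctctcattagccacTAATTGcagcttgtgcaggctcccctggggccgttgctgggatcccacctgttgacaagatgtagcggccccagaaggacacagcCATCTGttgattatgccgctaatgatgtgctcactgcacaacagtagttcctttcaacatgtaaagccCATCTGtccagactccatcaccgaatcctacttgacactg

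Among these, the peak nearest to Sox10 held 2 Sox sites, both read as CATTGT, and the first shared its last base with an Rbpj site. The peak nearest to Sox9 held no Sox site in its middle, but 2 homeodomain sites, 1 Nfi half-site and 1 Rbpj site. In the widest Sox9 peak there was 1 Sox site, read as CTTTGT, and the Sox8 peak had 3 E-boxes and no Sox site. A match of these letters is not evidence of binding by the factor.

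Sox9 (ENSMUSG00000000567) spans chr11:112643538-112649074 on the plus strand. Its window held 20 p300 peaks, where the share of assembled bases predicted 5.18, a 3.86-fold excess (one-sided exact binomial test, adjusted p = 4.16e-05, Benjamini-Hochberg over all 22367 protein-coding genes). Sox9 was thus the 1 of 3 SoxE genes with an excess, against 6.87% of all coding genes, and 1.41% of coding genes had as many peaks. The median coding gene had 4 peaks, with quartiles of 1 and 7, and the most was 53. The test compares 1 peak list with uniform placement, and windows of neighbouring genes share peaks: each Sox9 peak also lay in the windows of other coding genes, 2 to 11 windows in all.

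**Figure D1:**
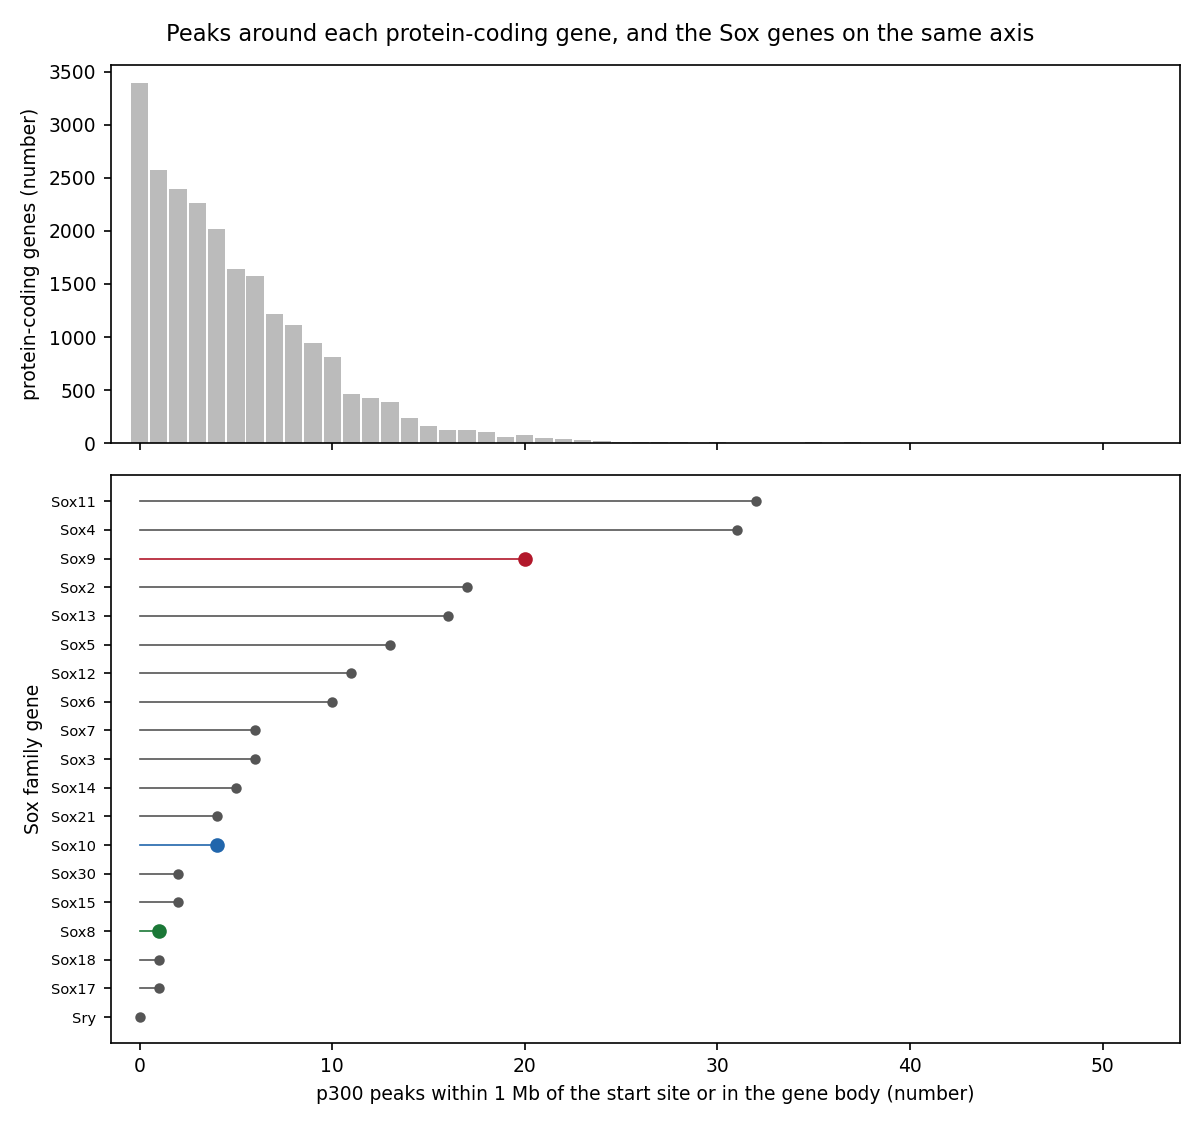
The upper panel counts protein-coding genes (vertical axis, number of genes) by the p300 peaks in their window (horizontal axis, number of peaks), and the lower panel places each Sox family gene on the same axis as a point, with Sox9 in red, Sox10 in blue and Sox8 in green. Sox9 stands at 20 peaks, behind Sox11 at 32 and Sox4 at 31, while Sox10 at 4 and Sox8 at 1 lie where most genes lie.

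The Sox9 peaks were distant ones. No peak lay within 100 kb of the start site, 3 lay within 250 kb, 6 within 500 kb and 20 within 1 Mb. At 250 kb, 15.0% of coding genes had as many peaks as Sox9, and at 500 kb 12.7% did. The nearest peak, 195 kb downstream, was no closer than usual, since 59.0% of coding genes had their nearest peak at least as far and the median over all of them was 262.2 kb. Across the start site of Sox9 the list had a gap of 779.3 kb between peak midpoints, and 13.1% of the gaps between neighbouring peaks were as long. Long gaps take up much of the genome, and 65.6% of coding start sites lay in a gap of that length or longer.

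**Figure D2:**
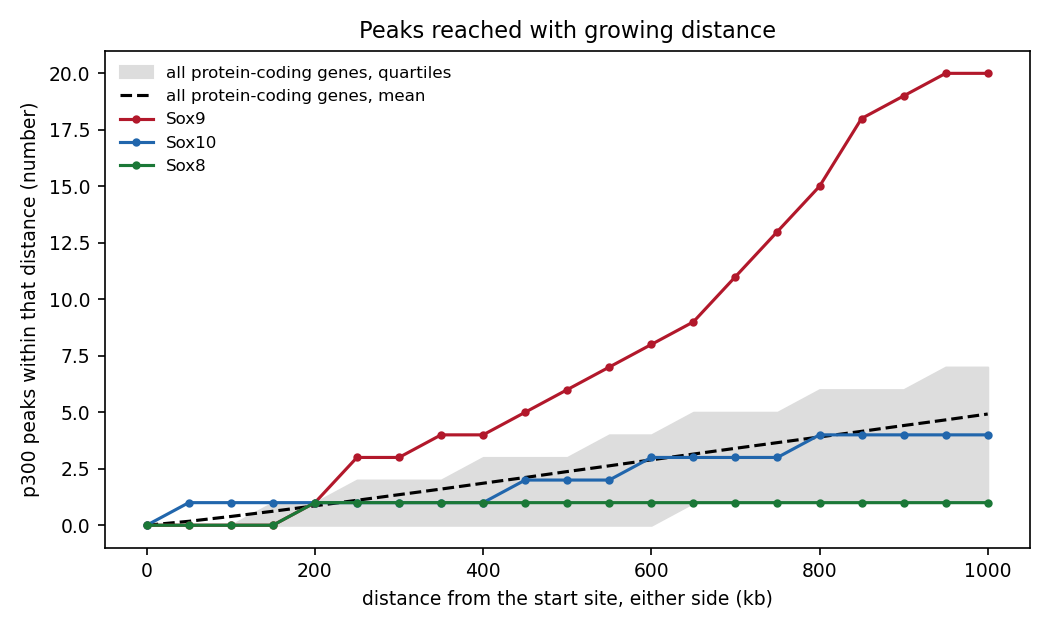
Number of p300 peaks (vertical axis) within a growing distance in kb either side of the start site (horizontal axis) for Sox9 (red), Sox10 (blue) and Sox8 (green), with the mean of all protein-coding genes as a dashed line and their quartiles shaded. Sox9 has no peak until 195 kb, reaches 6 peaks at 500 kb and climbs to 20 at 1 Mb, while Sox10 ends at 4 and Sox8 at 1.

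Upstream of Sox9, the desert itself held peaks at about the density of the genome. From the end of Kcnj2, which encodes an inward-rectifier potassium channel and is the next named coding gene on that side, to the start of Sox9 there were 1.705 Mb with 4 p300 peaks, or 2.35 per Mb, where the whole genome had 2.59 per Mb. Within the window, the upstream peaks were number 1036 at 938 kb (chr11:111704837-111706315), number 1037 at 726.4 kb (chr11:111916729-111917530) and number 1038 at 584.3 kb (chr11:112058576-112059826). All 3 were intergenic. The one protein-coding annotation in the interval, Gm11678, is a gene model without a family name, 350.6 kb from Sox9, and the lincRNA BC006965, which lies on the other strand directly upstream of Sox9, held no peak. The excess at Sox9 therefore lay on the other side of the gene.

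Downstream, the 457.1 kb between Sox9 and Slc39a11 held 5 peaks against an expected 1.18, or 10.9 per Mb. The first 3 were intergenic, number 1039 at 195 kb (chr11:112837914-112839144), number 1040 at 200.9 kb (chr11:112843603-112845259) and number 1041 at 232.4 kb (chr11:112875256-112876535). The other two, number 1042 at 316.5 kb (chr11:112959450-112960614) and number 1043 at 400.5 kb (chr11:113043699-113044300), lay in an intron of the lincRNA 2610035D17Rik, and number 1042 stood on tandemly repeated sequence. Peaks 1039 to 1042 were the 4 of the 20 for which Sox9 had the nearest coding start site.

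The remaining 12 peaks of the window, 1044 to 1055, lay inside Slc39a11, which encodes a metal ion transporter of the ZIP family and runs towards Sox9 on the minus strand (chr11:113106167-113511393). Its body had 12 peaks in 0.4052 Mb, or 29.6 per Mb, against an expected 1.05. Of 2401 coding genes with a body of 100 kb or more, 8 had 12 or more peaks and 20 were as dense, and the median such body had 0. All but 1 of these peaks were intronic, and number 1048 (chr11:113328199-113329865) touched an exon of the pseudogene Gm16487. The densest set lay at the end far from Sox9, with 6 peaks within 100 kb and midpoints from 113382455 to 113473391, and 2.17% of all peaks began a stretch as dense. Slc39a11 had the nearest coding start site for peaks 1043 to 1052, with number 1051 at 11.26 kb and number 1052 at 18.62 kb. The last peaks came near other promoters, with number 1053 18.51 kb and number 1054 7.399 kb from the start of the somatostatin receptor gene Sstr2. Number 1055 lay 14.76 kb from the start of Cog1, a Golgi tethering complex subunit, and 10.52 kb from another annotated Sstr2 start.

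**Figure D3:**
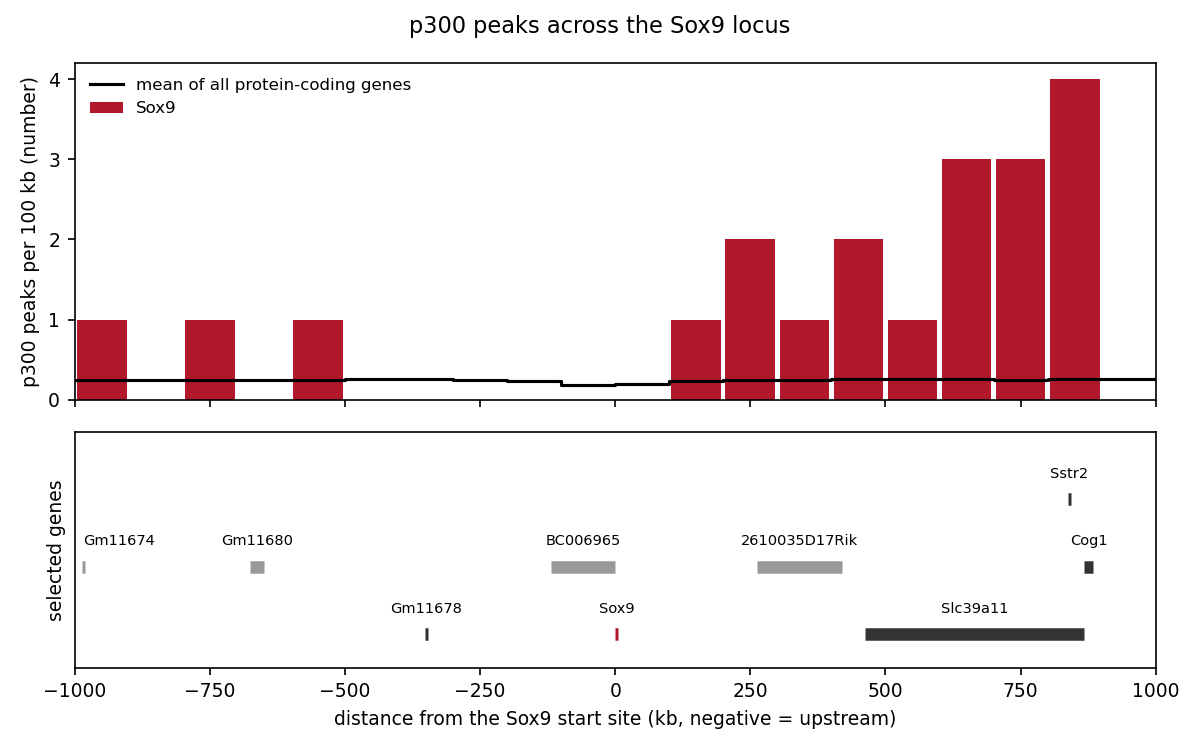
The upper panel gives p300 peaks per 100 kb (vertical axis, number of peaks) by distance from the Sox9 start site in kb (horizontal axis, negative upstream), with the mean over all protein-coding genes as a black line; the lower panel draws selected genes on the same axis, coding in dark grey, noncoding in light grey and Sox9 in red. Upstream bins hold 0 or 1 peak, bins from 100 to 600 kb downstream hold 1 or 2, those from 600 to 900 kb hold 3 or 4, and the last bin, from 900 to 1000 kb, holds 0.

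Counted by the strand of Sox9, 3 peaks were upstream and 17 downstream, each side holding 50% of the bases. The imbalance did not pass the test (adjusted p = 0.0556, two-sided exact binomial test over the 8079 coding genes with 6 or more peaks), which 4.11% of those genes did, 173 with more peaks upstream and 159 with more downstream. It passed with a reach of 2 Mb, with 29 of 33 peaks downstream (adjusted p = 0.000991, exact binomial test). Sox10 and Sox8 had too few peaks for this test.

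With a reach of 500 kb the excess at Sox9 did not pass the test (adjusted p = 0.383, exact binomial test). The rest of the window, with both the peaks and the bases of Slc39a11 taken out, had 8 peaks against an expected 4.13, or 1.94-fold (adjusted p = 0.403, exact binomial test). That split was chosen after seeing where the peaks lay, so a lower value follows from the choice. Slc39a11, Sstr2 and Cog1 each had 28 peaks in their own windows (adjusted p = 6.60e-10, exact binomial test), more than Sox9, and which gene any of these peaks serves was not measured. Gm11678 had 11 peaks, Kcnj2 had 4 and Kcnj16, another potassium channel gene, had 3, none of them an excess. At the edge of the rule, the outermost Sox9 peak lay 938 kb upstream, and the first peaks beyond the limit, numbers 1056 and 1057, lay 1003 and 1141 kb downstream.

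Sox10 (ENSMUSG00000033006, chr15:78985343-78994920, minus strand) had 4 peaks against an expected 5.18, a 0.772-fold level (one-sided exact binomial test, adjusted p = 1), and 52.5% of coding genes had as many. Counting only the eligible bases, the 68.4% of the window outside exons and more than 2.5 kb from any start site in GENCODE vM1, the fold was 1.00. This only approximates the authors' filters, which used the UCSC knownGene annotation. Unlike Sox9, Sox10 had a peak close by. Number 2251, 1113 bp wide (chr15:79023140-79024252), lay 28.78 kb upstream, and 92.5% of coding genes had their nearest peak at least as far. It was the most GC-rich of the SoxE peaks at 58.8%, and 98.7% of all peaks had no more. Within 50 kb Sox10 had this 1 peak, as 15.6% of coding genes had 1 or more.

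The other Sox10 peaks were downstream, each nearer to another gene. Number 2250 at 427.9 kb (chr15:78565928-78568099) was the widest SoxE peak, 2172 bp, and lay 18.47 kb from the start of Elfn2, a leucine-rich repeat protein gene. Number 2249 at 577 kb (chr15:78417450-78418453) was 9.525 kb from Cyth4, a member of the cytohesin family, and number 2248 at 780.6 kb (chr15:78213956-78214763) was in an intron of 1700061J05Rik. Polr2f, an RNA polymerase II subunit gene, and Pick1, a PDZ domain protein gene, flank Sox10 at 3.138 and 64.68 kb. Next outside the window were peaks at 2566 kb downstream and 2667 kb upstream.

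Sox8 (ENSMUSG00000024176, chr17:25702837-25707631, minus strand) had 1 peak where 5.18 were predicted (one-sided exact binomial test for an excess, adjusted p = 1), and 26.7% of coding genes had as few. A shortage did not pass the two-sided exact binomial test either (adjusted p = 0.183). The peak, number 2653 (chr17:25902613-25903430), was 818 bp wide and lay 195.4 kb upstream, 7.699 kb from the start of Narfl, a gene of iron-sulphur protein assembly. Between the flanking genes Sstr5, a somatostatin receptor gene, and Lmf1, a lipase maturation factor gene, there was no peak. The 1 Mb downstream of Sox8 held no peak. The gap in the peak list over Sox8 was 9321 kb, and most of it lay further downstream, beyond the window. How many coding genes lie in gaps as long was not counted. The next peak upstream was 1118 kb from Sox8.

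**Figure D4:**
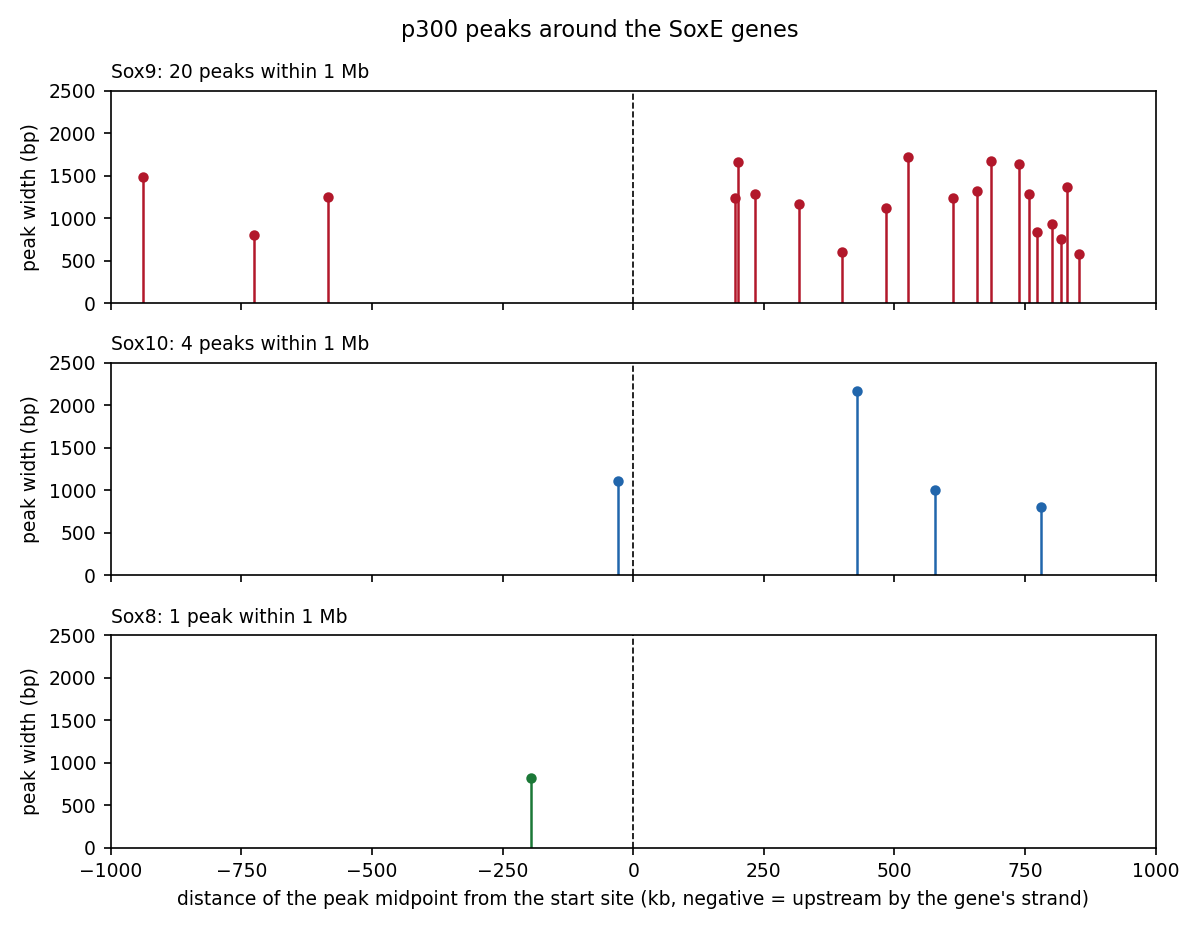
Each line is a p300 peak at the distance of its midpoint from the start site (horizontal axis, kb, negative upstream by the strand of the gene), with its height the width of the peak (vertical axis, bp), for Sox9 (red), Sox10 (blue) and Sox8 (green). Sox9 has 3 peaks upstream and 17 downstream, Sox10 has 1 peak 28.78 kb upstream and 3 downstream, and Sox8 has 1 peak 195.4 kb upstream.

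The SoxE genes differ in their surroundings. The Sox9 window held 9 coding start sites, where the median window held 30, while those of Sox10 and Sox8 held 61 and 90. Among the fifth of coding genes with the fewest neighbouring starts, to which Sox9 belongs, the median was 4 peaks and 1.71% had 20 or more. In the fifth with the most, to which Sox8 and Sox10 belong, the median was 2 peaks, 74.1% had 4 or fewer and 43.5% had 1 or fewer. The counts of Sox10 and Sox8 were therefore near those of other genes in crowded sequence, and whether the filter on exons and start sites lowered them was not tested beyond the eligible bases above, which made up 61.4% of the Sox8 window and 90.7% of the Sox9 window.

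In width, the SoxE peaks ran from 579 to 2172 bp with a median of 1231 bp, and 16 of 25 were wider than the median of all peaks, 1017 bp. The widest at Sox9 was number 1045 (1719 bp) and the narrowest number 1055 (579 bp), both in Slc39a11. GC content was high at all 3 genes, with 24 of 25 peaks above the median of all peaks, 45.2%. At Sox9 the 3 upstream peaks had 44.8 to 46.1% GC and the 17 downstream peaks 47.1 to 56.1%. The surrounding sequence moved the same way, with 41.5% GC in the upstream 1 Mb, 48.3% in the downstream 1 Mb, 50.9% in the Sox10 window and 49.8% in the Sox8 window, against 41.8% in the genome. Its part in the GC content of the peaks was not tested.

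Sequence sites occurred in the middle 300 bases of SoxE peaks at shares near or below those of all peaks. A Sox site was present in 10 of 25 SoxE peaks, or 40% (exact Clopper-Pearson 95% interval 21.1 to 61.3%), and in 2650 of all 6629 peaks, which is nearly the same share. Proneural E-boxes, the sites of factors such as the neurogenins, were present in 56% of SoxE peaks and 62.2% of all peaks. Homeodomain sites were found in 32% against 40.4%, Rbpj sites, which serve Notch signalling, in 24% against 27.0%, and Nfi half-sites in 24% against 31.7%. Every interval of the SoxE shares held the share of all peaks, and the intervals cover counting error only. They are wide, and they treat peaks as independent although 20 of the 25 lie in the Sox9 window, so they cannot show that the shares are equal. Paired sites were rare everywhere: a Sox site followed after 3 to 5 bases by one on the other strand was in 0 of 25 SoxE peaks, which allows a share of up to 13.7% (exact Clopper-Pearson interval), and in 0.151% of all peaks, and Nfi pairs with 5 bases between the half-sites were in 0 of 25 and 0.196%.

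The other Sox genes give the setting for these counts. Of 17 named, 16 were annotated as coding (Sox1 was not), and 5 of the 16 had an excess of peaks, against 6.87% of all coding genes. Their median was 6 peaks, against 4 for all coding genes, with a range of 0 to 32. Those with an excess were Sox11 (32 peaks) and Sox4 (31), factors of new neurons, Sox2 (17), the progenitor factor, and Sox13 (16) and Sox5 (13) of the SoxD group. In the domain that reaches to the neighbouring coding genes, Sox2 and Sox4 had 16 peaks each, Sox5, Sox9 and Sox11 13 each, and Sox13 1. Sox6, also of that group, had 10 peaks and no excess (adjusted p = 0.269, exact binomial test). By the 1 Mb window, Sox9 thus came behind Sox11 and Sox4 in the Sox family. By the domain, it came behind Sox2 and Sox4 and level with Sox5 and Sox11. Sox9 had the most uneven split of the 6 genes with an excess in the window. Sox2 had 9 peaks upstream and 8 downstream, Sox4 had 15 and 16, and Sox11 had 13 and 19.

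Genes known as partners or targets of SoxE proteins or as markers of glia had peaks at some loci and none at others. Of 25 listed, 24 were annotated (Myrf was not matched), and 5 of the 24 had an excess, against 6.87% of all coding genes. The median was 6.5 peaks, against 4 for all coding genes, with a range of 0 to 36. Nfib (36 peaks) and Nfia (28), which promote the making of glia, led the list, followed by Nkx2-2 (16) and by the neighbours Olig1 and Olig2 (15 each), factors of the oligodendrocyte lineage. Nkx2-2 had all 16 of its peaks downstream. In the domain that reaches to the neighbouring coding genes, Nfib had 30 peaks, Nfia 13, Olig1 3, Olig2 1 and Nkx2-2 0. Most window peaks of Nfia, Olig1, Olig2 and Nkx2-2 thus lay outside that domain. No peak lay in the windows of Slc1a3, a glutamate transporter gene of radial glia, of Egfr or of Erbb3. Windows without a peak were common, at 15.2% of all coding genes. Hes1, Notch1 and Fabp7 had 3 peaks each, and Gfap had 4. Both lists were chosen with results of these data known, so their counts are a description.

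By shape, the genes most like Sox9 were Ftsj2, a methyltransferase gene, with a Pearson correlation of 0.863, Sp100, a nuclear body protein gene, with 0.854 and Leprel1, a prolyl hydroxylase gene, with 0.840. The correlation was taken over 20 bins of 100 kb, oriented by strand, among 9701 coding genes with 5 or more peaks more than 2 Mb from Sox9. Ftsj2 had the same split as Sox9, 3 peaks upstream and 17 downstream, while Sp100 and Leprel1 each had 0 upstream and 7 downstream. With so few peaks in each bin the values describe the shape of the counts and nothing more.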

How the data were processed

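The deposited list holds p300 ChIP-seq peaks by chromosome, start, end and number. The authors aligned reads to mm9 with ELAND, kept unique alignments, called peaks against input with MACS (1.4 in the submitters' processing notes) using a fixed shift of 100 bp, and then dropped peaks touching exons, lying 2.5 kb or less from a start site, or likely to map non-uniquely. The input library was not analysed here, and with 1 library there was no replicate.

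Midpoints were counted in the body of each of 22367 coding genes (GENCODE vM1 on NCBIM37, the mm9 assembly) and 1 Mb either side of 1 start site, that of the transcript whose coding sequence was longest. Counts were compared with the window's share of assembled bases by exact binomial tests, Benjamini-Hochberg adjusted, with a threshold of 0.05, after tests on simulated data. Motifs were searched as fixed words in the middle 300 bases. Members and lists were chosen with earlier results of these data known. Genes named were the SoxE genes, their coding neighbours, genes holding or nearest to their peaks, the other Sox genes, a list of glial and partner genes, and the 3 genes most like Sox9. Windows, start sites, peaks counted, expected rates and sequence searched were varied. Python 3.11.15, numpy 2.4.6, scipy 1.17.1, pysam 0.24.0, samtools 1.23.1 and matplotlib 3.10.9 were used.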

Additional observations from a re-analysis of the deposited data

How the results depend on the processing

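The Sox9 excess of 3.86-fold fell below the threshold with a reach of 250 kb (2.32-fold, 3 peaks, adjusted p = 0.971) or 500 kb (2.32-fold, 6 peaks, adjusted p = 0.383), and with Slc39a11 taken out, chosen after seeing the data (1.94-fold without its peaks and bases, adjusted p = 0.403; 1.55-fold with its bases kept, adjusted p = 0.641), all by the exact binomial test. Fewer peaks enter each of these, and taking out a dense stretch lowers the value by construction. It held under the other alternatives, from 3.06-fold with the rate of chromosome 11 to 5.39-fold with the wider part of the peaks, from the median up. Sox10 turned from below to at or above the expected count with bases outside exons and start sites (1.00-fold) and in the domain between coding genes (4.94-fold, 1 peak; 4.70-fold without model names, added after seeing the data), never passing the test. Sox8 stayed below the expected count throughout. In the domain between coding genes it had 0 peaks against 0.190, and any gene without a peak falls below. The downstream share of Sox9 peaks passed the test at 2 Mb (87.9%, adjusted p = 0.000991) and against eligible bases (85%, adjusted p = 0.0351, exact binomial test), and not with joined peaks (84.2%, adjusted p = 0.105) or at 500 kb (100%, 6 peaks, adjusted p = 0.120, exact binomial test); the cause was not tested. Genes called genome-wide, 1537, became 468 at 250 kb, 914 at 500 kb, 2788 at 2 Mb, 816 with wide peaks, 1000 with joined peaks, 252 in domains and 239 in domains without model names. The side test called 332 of 8079 genes, and 148 of 2839 at 500 kb, 1697 of 15459 at 2 Mb and 89 of 7412 with joined peaks. The ratio of SoxE peaks to all peaks for E-boxes was 0.9 by the middle 300 bases, 0.903 by the share of whole peaks with a site (added after seeing the data) and 1.11 by sites per kb of whole peaks. In the same order it was 0.792, 0.76 and 0.814 for homeodomain sites and 0.758, 0.791 and 0.676 for Nfi half-sites. Rbpj sites had 0.888, 1.08 and 0.962, and Sox sites 1, 1.04 and 1. No paired analysis was possible because there was 1 library, and no replicate could be left out.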

Other observations

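Peak 1042, in the intron of 2610035D17Rik downstream of Sox9, stood on repeated sequence. Its middle 300 bases (chr11:112959882-112960181, plus strand, no site of the list) held 6 copies of the word ctgccatgtgtg, and the whole peak held 8. Of all 6629 peaks, 30 (0.453%) had a word of 12 bases, with all 4 letters in it, as often in their middle 300 bases, and the most in any other SoxE peak was 1. Whether reads there were placed correctly was not tested. It is printed to show the repeat, and was chosen after its values were seen.
Sox9 peak 1042: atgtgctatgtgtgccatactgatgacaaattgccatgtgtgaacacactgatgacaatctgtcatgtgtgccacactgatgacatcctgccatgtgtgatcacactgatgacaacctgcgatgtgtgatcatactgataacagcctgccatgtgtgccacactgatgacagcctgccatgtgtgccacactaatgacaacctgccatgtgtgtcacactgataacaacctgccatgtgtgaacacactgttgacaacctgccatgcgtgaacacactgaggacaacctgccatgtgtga

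The peaks around it were evenly spaced. From peak 1041 to peak 1044 the successive distances between midpoints were 84.14, 83.97 and 84.22 kb, then 42.08 kb to peak 1045 and 84.89 kb to peak 1046. Of 6569 runs of 3 successive distances in the list, this was the 1 run that agreed to within 0.5%. The tolerance was chosen after the spacing was seen, so the count is a description, and its cause was not tested.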
